A study of Arabidopsis thaliana with 27 samples.

Results

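The CIN-type TCP genes of Arabidopsis thaliana, 8 plant-specific transcription factor genes, were taken by locus from tables that list 33602 loci. They were TCP2, TCP3, TCP4, TCP10 and TCP24, whose transcripts carry a target site of the microRNA miR319, and TCP5, TCP13 and TCP17, which lack one. The rule used locus names alone and no measured value. Polyadenylated RNA had been sequenced in 27 libraries of stamens or gynoecia, in a study of how miR167 acts through its targets ARF6 and ARF8, which are auxin response factors. All plants carried the Columbia background as far as the labels state.

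Stamens came from stage 11 buds of wild type (n = 3), of the double mutant arf6arf8 (n = 2) and of mARF8 plants (n = 4), which hold an added genomic ARF8 copy whose miR167 site is mutated. In title order, mARF8 stamens 1 and 3 were line 3B, mARF8 stamens 2 were line 4B and mARF8 stamens 4 pooled several T1 plants. Gynoecia came from stage 12 flowers of wild type (n = 4), arf6arf8 (n = 2), mARF8 (n = 4, line 3B where the title gives one), axr3 (n = 4) and arf6axr3 (n = 4). In axr3, SEEDSTICK (STK) promoter sequence drives axr3-1, a gain-of-function form of IAA17 that yields a stabilised repressor of auxin responses, and arf6axr3 combines it with arf6. Titles name line 15-5 for axr3 gynoecia 3, an F1 of Columbia and line 25-2 for axr3 gynoecia 4 and no line for 1 and 2, while arf6axr3 gynoecia 1 and 3 were line 15-5 and 2 and 4 were line 25-2. Genotype tags of some mARF8 and arf6axr3 libraries give another line than the titles, and the titles were followed. Libraries whose titles name different lines came from different plants, and the spread of those groups includes differences between lines. For the other libraries nothing in the labels says that replicates were separate plants. The p-values there cover library-to-library spread that could be technical.

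CIN-type TCP proteins, named after CINCINNATA of Antirrhinum, move cells from division to expansion and differentiation in leaves and petals. The microRNA miR319 cleaves the transcripts of the TCP4 group, and loss of miR319a in Arabidopsis narrows petals and impairs anthers. TCP4 binds and activates LOX2, a lipoxygenase gene of jasmonate synthesis, and jasmonate is the hormone that triggers anther opening. TCP24 restrains wall thickening in the anther endothecium, the cell layer whose contraction opens the anther, and TCP5, TCP13 and TCP17 promote elongation growth of shoots in shade and warmth, partly through auxin synthesis genes.

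The mature miR319 sequences are shown because they divide the family into its 2 groups. They came from RefSeq for TAIR10.1, run 5′ to 3′, and have the seed (bases 2 to 8) in capitals. miR319a lies at chr4:12353109-12353129 (plus strand), miR319b at chr5:16660469-16660489 (minus strand) and miR319c at chr2:17029870-17029890 (plus strand).
miR319a: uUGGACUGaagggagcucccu
miR319b: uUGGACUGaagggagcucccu
miR319c: uUGGACUGaagggagcuccuu
The 3 share 1 seed, and miR319a and miR319b are identical.

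The best match to miR319c in each of the 5 target transcripts lay in coding sequence and paired with all 7 seed bases. In the sites below, written 5′ to 3′ on the transcript, capitals mark bases that pair with miR319c by A:U or G:C, and lower case marks bases that do not, G:U pairs included.
TCP2: cAGGgGgaCCCUUCAGUCCAA
TCP3: gAGGgGucCCCUUCAGUCCAu
TCP4: gAGGgGucCCCUUCAGUCCAg
TCP10: AAGGgGuaCCCUUCAGUCCAg
TCP24: uAGGgGgaCCCUUCAGUCCAA
The sites lie at chr4:10163402-10163422 (minus), chr1:19850522-19850542 (minus), chr3:5063300-5063320 (plus), chr2:13221210-13221230 (minus) and chr1:10628989-10629009 (minus) in that order. TCP2, TCP10 and TCP24 had 4 unpaired positions of 21, and TCP3 and TCP4 had 5. The limit of 5 unpaired positions was taken from these 5 sites, and all of them have a fully paired seed, so their inclusion below was fixed in advance. A window with at most 5 unpaired positions and a fully paired seed was found in 12 of 27440 protein-coding genes (0.0437%), and 5 of the 12 are these members. Without the seed condition 89 genes (0.324%) held a window with at most 5. The best windows of TCP5 and TCP13 had 8 unpaired positions, and 49.9% of genes held a window with at most 8, again without the seed condition. That of TCP17 had 7, and on the same terms 13.8% of genes held a window with at most 7.

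Read totals per library ran from 3989223 to 12723197 counts in stamens and from 3692975 to 15374607 in gynoecia. In every library the altered genes differed from wild type in the direction of its label: mean ARF8 was 84.6 CPM in wild-type stamens, 24.5 in arf6arf8 and 531 in mARF8, and mean IAA17 was 9.91 CPM in wild-type gynoecia and 65.4 in axr3. CPM here are library-size-normalised read counts, scaled by TMM factors of all 27 libraries, so that 1 scale holds for both tissues, and on this scale 3 counts corresponded to 0.171 to 1.07 CPM in a library. In these bulk samples fewer cells of a type and less RNA per cell cannot be told apart. Sums of defining markers followed the tissue labels. The carpel and ovule genes STK, SHP1, SHP2, CRC and INO summed to 7.24 to 17.9 CPM in stamens and 163 to 409 CPM in gynoecia. The petal and stamen genes AP3 and PI summed to 1149 to 1472 CPM in stamens and 7.47 to 26.7 CPM in gynoecia. CRC taken singly did not follow the labels. Its mean was 7.06 CPM in wild-type stamens and 5.59 in wild-type gynoecia (log2 difference 0.42, edgeR adjusted p = 0.484). In mARF8 it was 6.42 CPM in stamens and 1.07 in gynoecia.

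In wild-type gynoecia TCP10 was the most abundant member per unit of transcript length and in wild-type stamens TCP2, TCP24 and TCP4 were. Per kilobase of exon, TCP10 stood at 49.7 ± 0.726 CPM (SD, n = 4) in wild-type gynoecia and made up 43.5% of the summed level of the 8 genes. TCP2 followed at 32.5 ± 3.07 CPM per kilobase, TCP24 at 19.2 ± 2.38 and TCP4 at 6.35 ± 0.987, each without overlap with its neighbours. TCP13 (1.94 to 3.53 CPM per kilobase), TCP17 (1.06 to 2.18), TCP5 (1.21 to 1.57) and TCP3 (0.667 to 1.31) came last, and each of these ranges overlapped the next in that order.

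In wild-type stamens the summed level of the 8 genes was 28.7 ± 2.23 CPM per kilobase (n = 3) against 115 ± 5.35 (n = 4) in wild-type gynoecia. TCP2 (8.49 to 10.1 CPM per kilobase), TCP24 (6.48 to 9.15) and TCP4 (5.65 to 7.66) overlapped one another in stamens, and TCP10 (2.58 to 5.11) lay below all of them. In gynoecia the group means of the sum ran from 112 CPM per kilobase in mARF8 to 124 in arf6axr3. In mARF8 stamens it was 56.2 ± 13.5 CPM per kilobase (n = 4), with TCP4 at 43.7% of it (35.4 to 52.3%) against 22.9% (20.2 to 24.6%) in wild type, and the libraries of the groups did not overlap in either value.

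**Figure D1:**
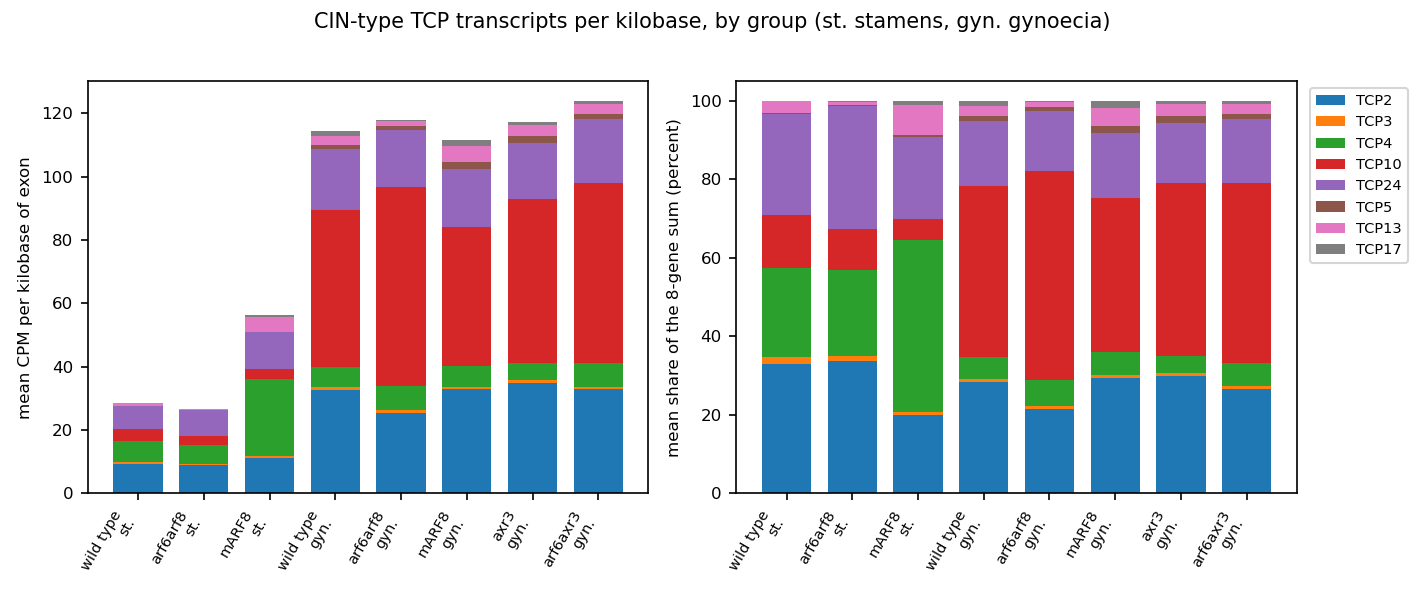
Mean CPM per kilobase of exon of each member, stacked by group (left), and mean share of the 8-gene sum in percent (right). The stamen stacks reach 28.7, 26.7 and 56.2 CPM per kilobase in wild type, arf6arf8 and mARF8, the gynoecium stacks 112 to 124, with TCP10 the widest band in gynoecia and TCP4 in mARF8 stamens.

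Between wild-type stamens and wild-type gynoecia TCP2, TCP10, TCP24 and TCP13 were called lower in stamens, and with TCP5 and TCP17 included these were 6 of the 8 members. Of all loci, 39.6% were called lower and 81% were called in either direction. TCP5 and TCP17, among the 6, failed the filter in stamens alone and were tested through their gynoecium counts, so a call for them could only be lower in stamens. TCP10 (AT2G31070, chr2:13220478-13222642, minus strand) stood at 10.3, 7.93 and 5.21 CPM in stamens 1 to 3 and at 99.6, 101, 98.7 and 102 CPM in gynoecia 1 to 4. Every stamen library was far below every gynoecium library, and TCP10 was 12.9-fold lower in stamens (log2 fold change −3.69, SE 0.21, edgeR adjusted p = 1.91e-13). TCP2 (AT4G18390, chr4:10162922-10165583, minus) stood at 18.1, 16.1 and 19.2 CPM in stamens and 56.2, 64.7, 57.5 and 68.4 CPM in gynoecia, 3.48-fold lower (adjusted p = 7.85e-10). TCP24 (AT1G30210, chr1:10627185-10630630, minus) stood at 11.4, 16.1 and 11.4 CPM in stamens and 32, 29.3, 34.8 and 39.1 CPM in gynoecia, 2.56-fold lower (adjusted p = 3.5e-07). For both genes the tissues were apart without overlap.

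TCP4 (AT3G15030, chr3:5061681-5064152, plus), the LOX2 activator, was the exception among the abundant members. It stood at 13.5, 18.3 and 15.3 CPM in wild-type stamens and 13.8, 12.7, 17.9 and 16.3 CPM in wild-type gynoecia. The ranges overlapped, and the difference was 0.07 on the log2 scale (SE 0.22, 95% interval −0.38 to 0.53, adjusted p = 0.762), at −0.19 with upper-quartile scaling. TCP3 (AT1G53230, chr1:19849788-19851725, minus) was near the detection limit, at 0.71, 1.24 and 0.652 CPM in stamens and 1.23 to 2.42 CPM in gynoecia (log2 fold change −0.96, SE 0.63, adjusted p = 0.166). The noncoding locus AT1G53233 lies antisense to TCP3 and had 58 counts in wild-type gynoecia against 75 for TCP3, and as the strand setting of the counting is not given in the sources used here, their reads cannot be told apart.

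The 3 members without a miR319 site were all lower in wild-type stamens. TCP13 (AT3G02150, chr3:390720-392767, plus) stood at 1.42, 1.98 and 1.63 CPM in stamens and 6.33, 5.11, 5.07 and 3.48 CPM in gynoecia, 2.92-fold lower (log2 fold change −1.55, SE 0.38, adjusted p = 0.000668). TCP5 (AT5G60970, chr5:24535337-24537244, minus) had 1 count in the 3 stamen libraries together and 101 in the 4 gynoecium libraries, which is 23.6 times as much per library size in gynoecia (exact counting interval from 4.14 to 940 at 95%, edgeR adjusted p = 4.63e-06). TCP17 (AT5G08070, chr5:2584358-2586035, plus) had no count in wild-type stamens and 90 in gynoecia, at least 7-fold lower against a floor of 3 counts over the group (adjusted p = 1.52e-06). TCP3, TCP5 and TCP17 passed the filter through their gynoecium counts, so a call for them could only be lower in stamens. Of all loci tested, 81% were called in this comparison and 39.6% were called lower in stamens. The median log2 difference was −1.67 over the 8 members, with TCP3, TCP5 and TCP17 included and also with TCP17 at its bound, and 0.02 over all loci. The tissues were also sampled at different stages. The scaling moved the all-locus median by 0.13 with median-of-ratios factors or DESeq2 and by −0.26 with upper-quartile factors. The 6 calls held under every alternative in which the gene was tested.

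**Figure D2:**
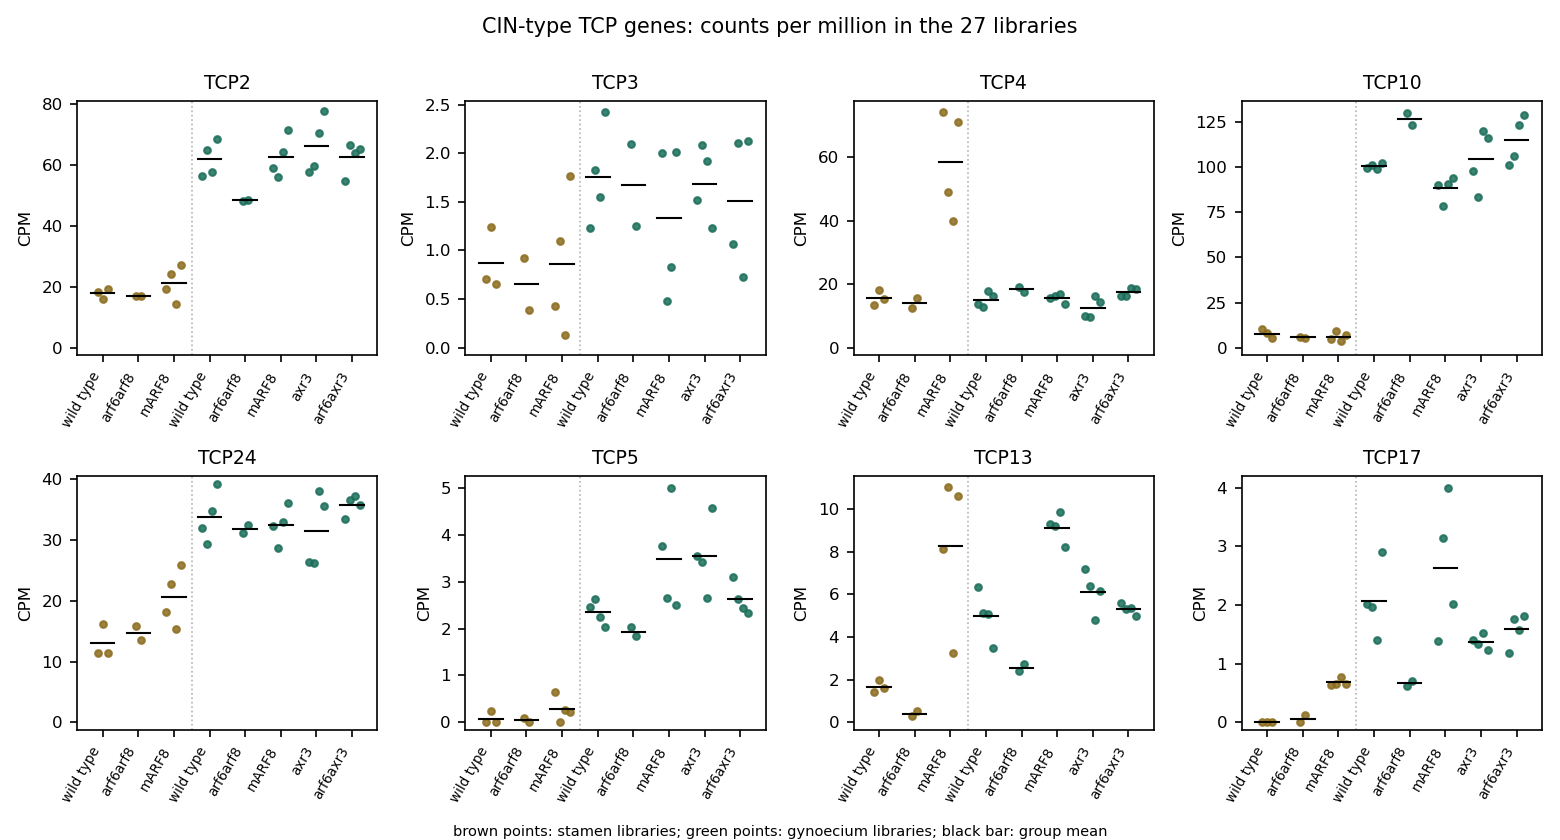
CPM of each member in each of the 27 libraries (linear axes from 0, 1 panel per gene), with stamen groups left of the dotted line, gynoecium groups right of it and bars at group means. TCP4 reaches 40 to 74.4 CPM in mARF8 stamens and stays below 20 CPM elsewhere, and TCP10 stays below 11 CPM in stamens and above 78 CPM in gynoecia.

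In mARF8 stamens, where ARF8 escapes miR167, 3 of the 5 members tested were higher than in wild type and none was lower, while 37% of all loci tested were called and 20.4% of all loci tested were called higher. TCP4 stood at 74.4, 49.1, 40 and 71 CPM in mARF8 stamens 1 to 4 and at 13.5, 18.3 and 15.3 CPM in wild type. All 4 mARF8 libraries lay above all other libraries of the series, including gynoecia of the same genotype. TCP4 was 3.89-fold higher (log2 fold change 1.96, SE 0.26, adjusted p = 0.00196), and this call held in 17 of 17 alternatives, between 1.81 and 2.11.

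TCP13 stood at 8.1, 11, 3.24 and 10.6 CPM in mARF8 stamens and at 1.42, 1.98 and 1.63 CPM in wild type, on 161 against 17 counts. No mARF8 library overlapped wild type, and TCP13 was 4.95-fold higher (log2 fold change 2.31, SE 0.50, adjusted p = 0.0105). The call held in 15 of 16 alternatives and was lost at adjusted p = 0.0839 with low-numbered libraries alone. Of the 4 mARF8 stamen libraries, 1, 2 and 4 lay in or near the 8.19 to 9.83 CPM of mARF8 gynoecia.

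TCP24 stood at 18.1, 22.8, 15.3 and 25.9 CPM in mARF8 stamens and at 11.4, 16.1 and 11.4 CPM in wild type. mARF8 stamens 3 lay below wild-type stamens 2, so the groups overlapped. TCP24 was called 1.64-fold higher (log2 fold change 0.71, SE 0.22, adjusted p = 0.0352), and this call was less stable, holding in 9 of 17 alternatives. Its adjusted p was 0.112 without wild-type stamens 1, 0.143 without wild-type stamens 3, and 0.0555, 0.0755 and 0.0876 without mARF8 stamens 1, 2 and 4. With line 3B alone the log2 fold change was 0.37 (adjusted p = 0.207).

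TCP2 and TCP10 were not called in mARF8 stamens. TCP2 stood at 19.2, 24.3, 14.4 and 27.2 CPM against 18.1, 16.1 and 19.2 (log2 fold change 0.32, SE 0.22, adjusted p = 0.273), and without mARF8 stamens 3 it was called at 0.49 (adjusted p = 0.0341). TCP10 stood at 4.9, 9.21, 3.75 and 6.86 CPM against 10.3, 7.93 and 5.21 (log2 fold change −0.29, interval −1.08 to 0.51, adjusted p = 0.541). The ranges of both genes overlapped wild type.

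TCP3, TCP5 and TCP17 had too few stamen counts to pass the filter. TCP17 had 3, 3, 6 and 3 counts in mARF8 stamens 1 to 4 and none in wild type, at least 2.31-fold higher against a floor of 3 counts over the group. TCP5 had 6 counts against 1, a ratio of 2.77 whose counting interval of 0.336 to 127 spans equality. TCP3 stood at 0.426, 1.1, 0.129 and 1.77 CPM against 0.71, 1.24 and 0.652, with overlap. The 5 members tested had a median log2 fold change of 0.71, against 0.09 over all loci.

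Library 3 of the mARF8 stamens, of line 3B, was the lowest of its group in TCP2, TCP3, TCP4, TCP10, TCP13 and TCP24, and also in ARF8 itself, at 333 CPM. Markers of anther tissues moved with these changes. The late pollen genes VGD1, PPME1, ANX1, ANX2 and STP11 summed to 1228 to 10205 CPM in mARF8 stamens and 16850 to 21972 CPM in wild type, and all 5 were called lower. The 6 tapetum and endothecium genes summed to 183 to 325 CPM against 60.5 to 82.4 CPM, with 2 of the 3 tested called higher, and MS1 and A9 had no count in wild type. Their part in the result was not tested.

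In arf6arf8 stamens no member was called, at 0 of 5 tested against 4.39% of all loci, 1 at an unadjusted p under 0.05 and 0 with DESeq2. TCP4 stood at 12.4 and 15.6 CPM (log2 fold change −0.19, interval −0.87 to 0.49), TCP2 at 17.1 and 17 CPM (−0.07, −0.65 to 0.51) and TCP24 at 15.9 and 13.6 CPM (0.17, −0.42 to 0.75), and each overlapped the wild-type libraries. TCP10 stood at 6.18 and 5.28 CPM (−0.45, interval −1.37 to 0.47). TCP13 was the member below an unadjusted p of 0.05, at 0.309 and 0.515 CPM on 7 counts, below all 3 wild-type libraries (log2 fold change −2.02, SE 0.76, adjusted p = 0.187). The median over the 5 members was −0.19 on the log2 scale and over all loci 0.01. The late pollen sum was 11621 to 14135 CPM and the tapetum and endothecium sum 127 to 140 CPM in these libraries, and their part was not tested.

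In arf6arf8 gynoecia the 2 members called were TCP13 and TCP17, both lower, of 8 tested, against 11.2% of all loci called and 4.97% called lower. TCP13 stood at 2.4 and 2.73 CPM in arf6arf8 gynoecia and 6.33, 5.11, 5.07 and 3.48 CPM in wild type, without overlap (log2 fold change −0.96, SE 0.21, adjusted p = 0.00527). TCP17 stood at 0.616 and 0.712 CPM, on 10 and 12 counts, against 2.02, 1.97, 1.41 and 2.9 CPM, also without overlap (log2 fold change −1.64, SE 0.38, adjusted p = 0.00875). Both calls rested on 2 libraries. Without arf6arf8 gynoecia 1 the adjusted p was 0.0887 for TCP13 and 0.112 for TCP17, and without arf6arf8 gynoecia 2 it was 0.0798 for TCP17.

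No miR319 target was called in arf6arf8 gynoecia in the main fit, with TCP2 and TCP10 closest to a call and in opposite directions. TCP2 stood at 48.2 and 48.3 CPM against 56.2 to 68.4 in wild type (log2 fold change −0.35, SE 0.12, adjusted p = 0.0664), and TCP10 at 130 and 123 CPM against 98.7 to 102 (0.33, SE 0.12, adjusted p = 0.0742). Neither overlapped wild type, and DESeq2 called both, at 0.0445 and 0.049. Each was called in 4 of 15 alternatives, among them only the groups compared and library number as a covariate. TCP4 stood at 19.2 and 17.7 CPM against 12.7 to 17.9 (log2 fold change 0.30, interval −0.05 to 0.64, adjusted p = 0.276), and was called in 2 of 15 alternatives. TCP24, TCP5 and TCP3 overlapped wild type. The median over the 8 members was −0.18 on the log2 scale and over all loci −0.01. The petal and stamen genes AP3 and PI summed to 26 to 26.7 CPM in these libraries against 7.47 to 12.8 CPM in wild type. Among the carpel and ovule genes, CRC was called higher (2.47, edgeR adjusted p = 0.00272) and SHP1 lower (−0.73, edgeR adjusted p = 6.57e-05). The part of these markers was not tested.

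In mARF8 gynoecia TCP13 was the 1 member of 8 that was called, higher, in a comparison that called 0.688% of all loci and 0.295% higher. It stood at 9.27, 9.2, 9.83 and 8.19 CPM in mARF8 gynoecia 1 to 4 and 6.33, 5.11, 5.07 and 3.48 CPM in wild type. The groups did not overlap, and TCP13 was 1.82-fold higher (log2 fold change 0.87, SE 0.16, adjusted p = 0.0166). Leaving out wild-type gynoecia 2, wild-type gynoecia 4 or mARF8 gynoecia 3 moved the adjusted p to 0.0506, 0.0515 and 0.084. With low-numbered libraries alone the log2 fold change was 0.73 (adjusted p = 0.193).

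TCP4 did not follow TCP13 in mARF8 gynoecia, at 15.8, 16.2, 16.8 and 13.9 CPM against 13.8, 12.7, 17.9 and 16.3 (log2 fold change 0.06, interval −0.25 to 0.38, adjusted p = 0.9). TCP5 stood at 3.76, 2.66, 5 and 2.51 CPM against 2.46, 2.63, 2.25 and 2.03 (0.58, SE 0.23, adjusted p = 0.284). TCP10 lay below wild type in all 4 libraries, at 90.1, 78.6, 90.3 and 93.9 CPM (−0.18, SE 0.10, adjusted p = 0.471). The other members overlapped wild type, and the median over the 8 was 0.04 on the log2 scale against 0 over all loci.

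In axr3 gynoecia none of the 8 members was called while 15.7% of all loci were, with 1 member at an unadjusted p under 0.05 and 0 called by DESeq2. That member was TCP5, whose axr3 libraries stood at 3.54, 3.42, 2.64 and 4.57 CPM while wild type stood at 2.46, 2.63, 2.25 and 2.03, with the lowest axr3 library at 2.64 just above the highest of wild type at 2.63 (log2 fold change 0.55, SE 0.22, adjusted p = 0.0997). Without axr3 gynoecia 3 it was called at 0.69 (adjusted p = 0.0486). TCP10 stood at 98, 83.4, 120 and 116 CPM (0.06, interval −0.15 to 0.26) and TCP2 at 57.5, 59.4, 70.3 and 77.6 CPM (0.10, interval −0.11 to 0.30), both across the wild-type range. TCP4 stood at 9.9, 9.66, 16.4 and 14.4 CPM (−0.25, interval −0.56 to 0.06). The medians over members and over all loci were both 0 on the log2 scale.

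In TCP2, TCP4, TCP10 and TCP24, axr3 gynoecia 1 and 2 lay below axr3 gynoecia 3 and 4. The former have library numbers 3 and 12 in their titles and the latter 49 and 52. The former also name no line, while axr3 gynoecia 3 name line 15-5 and axr3 gynoecia 4 an F1 with line 25-2. Within axr3, library number and line therefore cannot be told apart. With library number as a covariate TCP4 (−0.40, adjusted p = 0.0308) and TCP24 (−0.24, adjusted p = 0.0173) were called lower. What the library number stands for is not given in the labels.

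In arf6axr3 gynoecia none of the 8 members was called against wild type, where 1.72% of all loci were, and none had an unadjusted p under 0.05 or a DESeq2 call. TCP4 stood at 16.3, 16.4, 18.9 and 18.6 CPM (log2 fold change 0.22, interval −0.08 to 0.51) and TCP10 at 101, 106, 123 and 129 CPM (0.19, interval −0.02 to 0.39). TCP13 stood at 5.59, 5.31, 5.34 and 4.96 CPM (0.08, interval −0.27 to 0.42). Set against axr3 directly, again none of 8 was called, with 8.56% of all loci called and 1 member, TCP4, at an unadjusted p under 0.05. Mean IAA17 was 27.5 CPM in arf6axr3 and 65.4 in axr3, so the groups differ in IAA17 level as well as in ARF6. TCP4 was 1.38-fold higher in arf6axr3 than in axr3 (log2 fold change 0.46, SE 0.15, adjusted p = 0.0567), with axr3 gynoecia 3 inside the arf6axr3 range. The median was 0.08 over members and −0.01 over all loci against wild type, and 0.03 and 0 against axr3. TCP4 was called in 3 of 18 alternatives, by DESeq2 (0.47, adjusted p = 0.039), with the replicate block (0.5, edgeR adjusted p = 0.0101) and without axr3 gynoecia 3 (0.64, adjusted p = 0.00723). The remaining alternatives, library number as a covariate among them, did not call it. The axr3 libraries lowest in TCP4, axr3 gynoecia 1 and 2, have library numbers 3 and 12, while those of arf6axr3 run from 32 to 51.

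**Figure D3:**
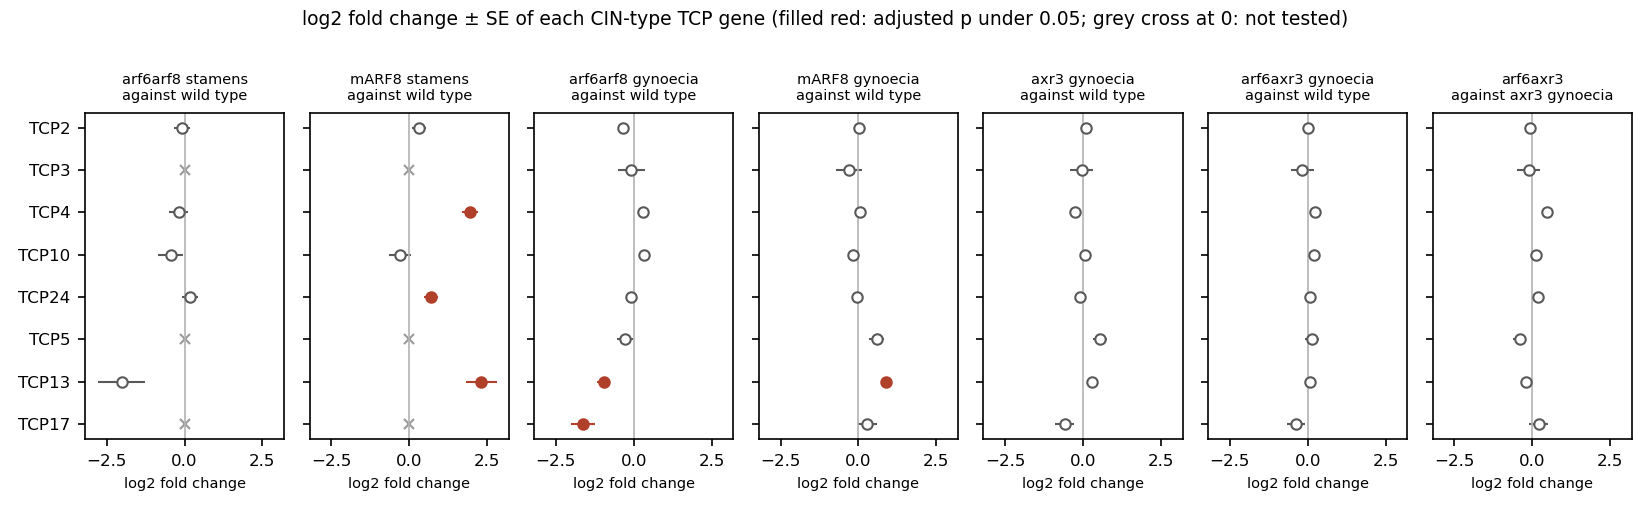
log2 fold change ± SE of each member in the 7 comparisons between genotypes, filled red where adjusted p is under 0.05 and with a cross where the gene was not tested. The filled points are TCP4 (1.96), TCP24 (0.71) and TCP13 (2.31) in mARF8 stamens, TCP13 (−0.96) and TCP17 (−1.64) in arf6arf8 gynoecia and TCP13 (0.87) in mARF8 gynoecia.

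Of the 50 tests of a member in the 7 genotype comparisons, 6 were calls, and 3 of these were of TCP13. The share of all loci called in these comparisons ran from 0.688% in mARF8 gynoecia to 37% in mARF8 stamens. Of the 7 comparisons, 6 use the wild-type libraries of their tissue, so their values are not independent. Side by side, TCP13 had log2 fold changes of 0.87 in mARF8 and −0.96 in arf6arf8 gynoecia, and 2.31 in mARF8 and −2.02 (not called) in arf6arf8 stamens. TCP17 had 0.29 (not called) and −1.64 in the same gynoecia. TCP4 had 1.96 in mARF8 stamens and values between −0.25 and 0.30 in the other comparisons with wild type.

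The mARF8 effect was then tested for a difference between tissues in 1 fit of the 27 libraries. It was called larger in stamens than in gynoecia for TCP4, TCP13 and TCP24. TCP17 was also called, but with no count in wild-type stamens its stamen effect could only point up. With TCP17 included these are 4 of the 8 members, where 25.8% of all loci differed and 14.1% in that direction. TCP3, TCP5 and TCP17 entered this fit through their gynoecium counts, having failed the filter in stamens alone. The difference in log2 fold change was 1.82 for TCP4 (SE 0.29, adjusted p = 0.000136), and it was called in 25 of 25 alternatives, between 1.49 and 1.97. For TCP13 it was 1.36 (SE 0.46, adjusted p = 0.0314), called in 16 of 25 alternatives, and 0.74 (adjusted p = 0.302) with line 3B in both tissues. Its adjusted p was 0.0595 without wild-type gynoecia 1, 0.05 without mARF8 gynoecia 4, 0.0801 and 0.0776 without wild-type stamens 1 and 3, and 0.0741 and 0.0621 without mARF8 stamens 2 and 4. For TCP24 it was 0.68 (SE 0.24, adjusted p = 0.039), called in 11 of 25. That call was lost without wild-type gynoecia 3 or 4, mARF8 gynoecia 1, 2 or 3, wild-type stamens 1 or 3, or mARF8 stamens 2 or 4, at adjusted p from 0.0529 to 0.119. The fitted difference for TCP17 (5.28, SE 1.42, adjusted p = 0.0137) rests on 15 against 0 stamen counts and its size depends on the prior count, so nothing is read from it beyond those counts. It was lost without wild-type stamens 2 (adjusted p = 0.0527). Among all loci called, 54.7% were higher with TMM factors, 68.3% with upper-quartile factors, 45% with median-of-ratios factors and 43.7% with DESeq2.

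The arf6arf8 effect differed between tissues for 0 of the 8 members, against 6.65% of all loci. TCP10 alone had an unadjusted p under 0.05 (−0.77, adjusted p = 0.167), and DESeq2 called 0. Among all loci called, 43.1% were higher in stamens with TMM factors, 48.5% with upper-quartile factors, 25.9% with median-of-ratios factors and 26.4% with DESeq2.

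The miR319 precursor loci gave almost no reads in these polyadenylated libraries, which are not made for small RNAs. MIR319A had 10, 14, 8, 6 and 8 counts in wild-type, arf6arf8, mARF8, axr3 and arf6axr3 gynoecia, summed over libraries, and no count in any of the 9 stamen libraries. MIR319B had at most 9 counts in a group and MIR319C at most 1. Levels of mature miR319 were not measured. MIR159B, precursor of a related microRNA that targets MYB33 and MYB65, stood at 5.53 ± 0.844 CPM in wild-type gynoecia (n = 4) and 0.501 ± 0.149 CPM in wild-type stamens (n = 3), and was lower in stamens by −3.41 on the log2 scale (adjusted p = 6.65e-08). MIR159A had at most 3 counts in a group. MIR167A, a precursor of the microRNA that targets ARF6 and ARF8, was higher in arf6arf8 gynoecia (log2 fold change 5.61, adjusted p = 2.14e-07). Its stamen calls, 2.02 in arf6arf8 (adjusted p = 0.0368) and −1.45 in mARF8 (adjusted p = 0.0465), were each lost on leaving out any 1 wild-type stamen library.

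The genes known to act downstream of CIN-type TCPs were followed as a list of 11, chosen from the literature with earlier results of these data known. In mARF8 stamens 2 of the 6 tested rose, LOX2 and ARR16, and none fell. Over all loci tested, 37% were called there and 20.4% were called higher. LOX2 (AT3G45140) stood at 4469, 4551, 2625 and 3615 CPM in mARF8 stamens 1 to 4 and at 1348, 1267 and 1370 CPM in wild type. As for TCP4, the groups did not overlap and mARF8 stamens 3 were lowest (log2 fold change 1.59, SE 0.26, adjusted p = 0.00375). ARR16, a cytokinin response regulator gene that TCP4 activates, rose from 61.2 ± 2.41 to 105 ± 12.9 CPM (log2 fold change 0.84, SE 0.12, adjusted p = 0.00242).

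LOX2 fell in arf6arf8 stamens to 29 and 46.2 CPM (log2 fold change −5.15, adjusted p = 0.000452), where TCP4 overlapped wild type. It rose in axr3 gynoecia, at 1462, 1524, 1422 and 1968 CPM against 765, 392, 636 and 523 in wild type (1.46, SE 0.19, adjusted p = 4.09e-05), where TCP4 was not called and had a negative estimate. Among the genotype comparisons, LOX2 and TCP4 were both called in mARF8 stamens alone. In mARF8 gynoecia LOX2 was not called (0.60, adjusted p = 0.184), nor was TCP4.

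A stretch of sequence before LOX2, chr3:16524990-16525147 (plus strand, TAIR10.1), 255 to 98 bases before the annotated start, holds both matches of GGACCA in the 300 bases before that start. GGACCA is a hexamer bound by TCP4, and it was searched on both strands. The capitals mark the matches, 1 on each strand and not overlapping.
LOX2: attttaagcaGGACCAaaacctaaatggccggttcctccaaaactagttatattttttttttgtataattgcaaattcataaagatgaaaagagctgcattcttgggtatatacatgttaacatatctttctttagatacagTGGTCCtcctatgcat
GGACCA was found in 6.88% of 27443 such windows. None of the windows before the 8 members held GGACCA, nor the auxin response elements TGTCTC (13.0% of windows) or TGTCGG (4.91%), which says only that these letters are not in those windows.

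Calls in the other lists varied with the comparison, as did the share of all loci called. That share was 4.39% in arf6arf8 stamens and 37% in mARF8 stamens. In gynoecia it was 11.2% in arf6arf8, 0.688% in mARF8, 15.7% in axr3 and 1.72% in arf6axr3, and 8.56% for arf6axr3 against axr3. The boundary genes CUC1, CUC2 and CUC3, which CIN-type TCPs keep low in leaves, had no call in mARF8 stamens, 0 of 2 tested with 0 at an unadjusted p under 0.05. Of the GRF genes, growth regulators downstream of TCP4 through miR396, 1 of 6 tested rose in mARF8 stamens, GRF4 (1.15, SE 0.36, adjusted p = 0.034), called in 5 of 16 alternatives and lost without any 1 of the wild-type stamens or without mARF8 stamens 1, 2 or 4 (adjusted p from 0.0577 to 0.106). In arf6arf8 stamens GRF4 was lower (−2.46, adjusted p = 0.0338) and GRF5 higher (2.39, adjusted p = 0.0293), and leaving out either arf6arf8 library ended both calls. In arf6arf8 gynoecia GRF4 stood at 26.7 ± 0.141 CPM (n = 2) against 47 ± 4.7 CPM (n = 4) (−0.81, SE 0.12, adjusted p = 0.00018), and of the 9 GRF genes 3 fell and 1 rose. CUC1 rose there (1.15, adjusted p = 0.0298) and was called in 10 of 15 alternatives, not without wild-type gynoecia 1, 2 or 4 or either arf6arf8 library (adjusted p from 0.0501 to 0.17). No downstream gene was called among 6 tested in arf6arf8 gynoecia or among 6 in mARF8 gynoecia, with 0 and 3 at an unadjusted p under 0.05.

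In axr3 gynoecia, where no member was called, CUC1 stood at 43.8 ± 18.1 CPM against 3.16 ± 0.691 in wild type (3.80, SE 0.27, adjusted p = 2.42e-08) and CUC2 at 96.5 ± 7.87 CPM against 13.8 ± 3.02 (2.83, SE 0.18, adjusted p = 7.31e-09). The carpel and ovule markers summed to 163 to 263 CPM in these axr3 libraries against 360 to 383 CPM in wild type, without overlap, and of the 5 SHP1 (−1.01) and SHP2 (−0.43) were called lower. The AP3 and PI sum was 13 to 24.1 CPM against 7.47 to 12.8 CPM, with PI called higher (1.52), and the part of these markers in the result was not tested. CUC1 and CUC2 were lower in arf6axr3 than in axr3, by −3.08 and −1.74 on the log2 scale (adjusted p = 2.23e-07 and 2.35e-06). CUC2 was still above wild type in arf6axr3 (1.09, edgeR adjusted p = 0.00413). IAA17 itself was lower in arf6axr3 than in axr3, at 27.5 against 65.4 CPM (−1.25, edgeR adjusted p = 2.93e-05). These groups thus differ in IAA17 level as well as in ARF6, and the part of either was not tested. Of 9 GRF genes 1 rose and 2 fell in axr3, with GRF7 at 1.46 (adjusted p = 0.000482) and GRF5 at −1.03 (adjusted p = 0.0104). Of the downstream genes, LOX2 alone was called among 6 tested in axr3 and among 6 in arf6axr3 (0.90, adjusted p = 0.0216), the latter in 12 of 18 alternatives and not without wild-type gynoecia 2 (adjusted p = 0.0749), wild-type gynoecia 4 (0.0665) or arf6axr3 gynoecia 2 (0.0624). IAA3, an Aux/IAA gene activated by TCP3, was the downstream gene lower in arf6axr3 than in axr3 (−0.83, adjusted p = 0.0177), and this was lost without axr3 gynoecia 2 or arf6axr3 gynoecia 3 or 4 (adjusted p from 0.0542 to 0.0677).

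**Figure D4:**
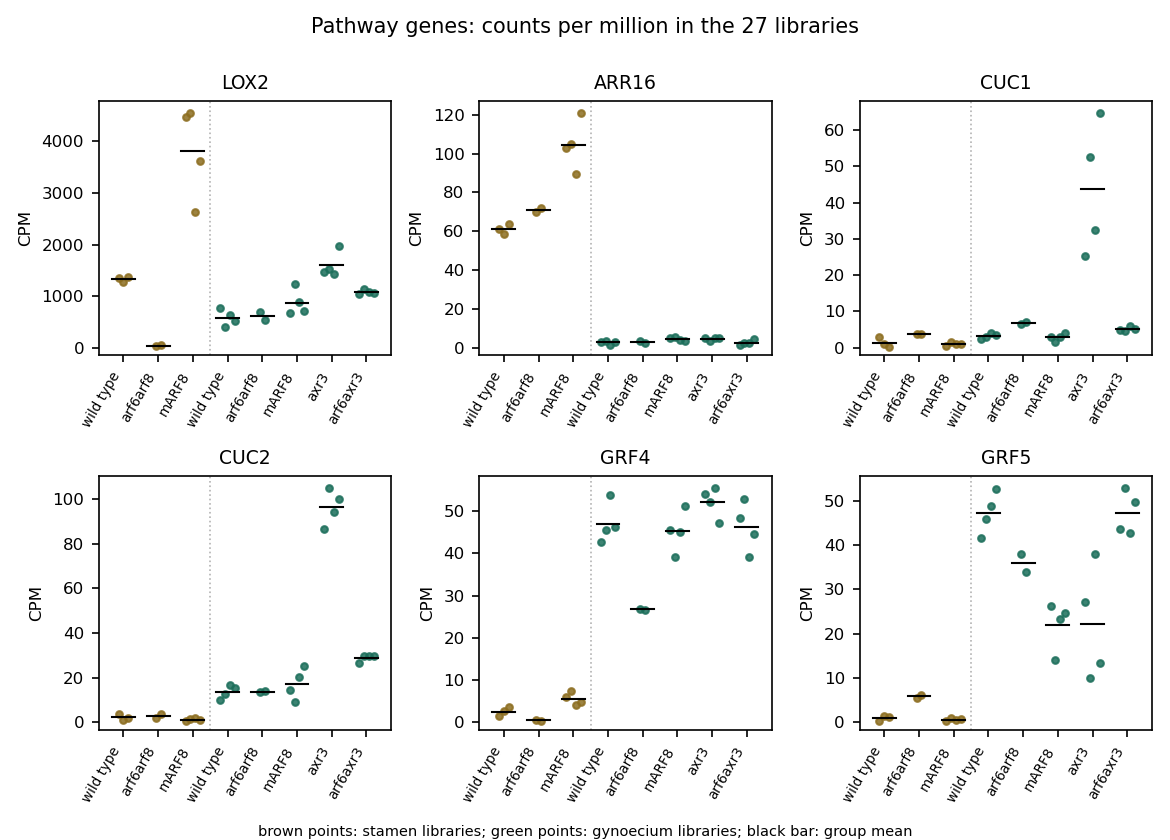
CPM of 6 genes linked to CIN-type TCPs in each library (linear axes from 0), stamen groups left of the dotted line, gynoecium groups right of it, bars at group means. LOX2 and ARR16 are highest in mARF8 stamens, at 2625 to 4551 and 89.6 to 121 CPM, and CUC1 and CUC2 in axr3 gynoecia, at 25.4 to 64.7 and 86.7 to 105 CPM.

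Between wild-type tissues, the lists around the family differed in both directions. Over all loci tested, 81% were called there and 39.6% were called lower in stamens. All 9 GRF genes were lower in stamens, among them GRF4 (log2 difference −4.16) and GRF8 (−1.16), as were all 3 CUC genes, with CUC2 at −2.60. Of 11 class I TCP genes tested, the other large branch of the TCP family, 8 were lower in stamens and none higher, with TCP15 at 4.53 against 119 CPM (−4.68, adjusted p = 5.82e-17). The repressor gene TIE3, a relative of TIE1, which binds CIN-type TCPs, was higher in stamens, on 408 against 2 counts, and so were MYB33 (1.60) and MYB65 (2.89). Of 7 downstream genes tested 4 were higher in stamens, ARR16 (4.43) and KRP1 (4.23) foremost, and AS1 was lower (−2.29). Among the CYC/TB1 branch of the TCP family, all at low levels, TCP1 was higher in stamens (3.24 against 0 CPM, edgeR adjusted p = 1.3e-06). TCP12 (0.536 against 2.06 CPM, adjusted p = 0.0034) and TCP18 (0 against 0.443 CPM, adjusted p = 0.0485) were lower. TCP1 had no count in wild-type gynoecia and TCP18 none in wild-type stamens, so each could be called in 1 direction alone.

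Of the class I TCP genes, 1 of 10 tested was called in arf6arf8 stamens, lower, and 3 of 11 in arf6arf8 gynoecia, 2 lower and 1 higher. TCP14 was lower in arf6arf8 stamens (−1.88, adjusted p = 0.0124) and in arf6arf8 gynoecia (−0.69, adjusted p = 0.00841), where TCP19 was lower (−0.51, adjusted p = 0.00599) and TCP9 higher (0.86, adjusted p = 0.0213). The stamen call was lost without arf6arf8 stamens 1 or 2 (adjusted p = 0.154 and 0.0584) and the gynoecium call without arf6arf8 gynoecia 2 (0.147), as was that of TCP19 (0.1). In mARF8 stamens 1 of 10 class I genes was higher, TCP22 (0.61, adjusted p = 0.0475), called in 2 of 17 alternatives and lost on leaving out any 1 library of either group. In axr3 gynoecia 2 of 11 class I genes were called, TCP19 lower (−0.48, adjusted p = 0.00188) and TCP23 higher (0.42, adjusted p = 0.0327). The call of TCP23 was lost without wild-type gynoecia 2 or 4 or axr3 gynoecia 1, 2 or 4 (adjusted p from 0.0698 to 0.0972). TCP18, of the CYC/TB1 branch, was higher in axr3 gynoecia (2.34, adjusted p = 0.0103). The 7 partner genes, TIE1 to TIE4, TPL, MYB33 and MYB65, had no call among 5 tested in mARF8 stamens (0 at an unadjusted p under 0.05). In axr3 gynoecia TIE4 (−1.45, adjusted p = 0.0274) and TPL (−0.22, adjusted p = 0.0495) were lower, and TIE4 lost its call without wild-type gynoecia 1 or 2 or axr3 gynoecia 1 or 2 (adjusted p from 0.07 to 0.0897).

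The genes most like each member were read over the 27 libraries among 17138 loci, after removing the mean log2 CPM of each tissue. TCP13 had GH9C2 (Pearson r = 0.96) and LPAT5 (0.95), TCP4 had AT5G52810 and GH9B7 (0.92 each), and TCP24 had AT1G24510 and PLP9 (0.91 each). TCP2 had AT3G52170 (0.89), TCP17 had OPT7 (0.88), TCP10 had AT5G50740 (0.82), TCP5 had AT2G40230 (0.76) and TCP3 had UBP7 (0.70). Among members, TCP4 and TCP24 (0.75), TCP13 and TCP17 (0.72) and TCP4 and TCP13 (0.71) were most alike, and TCP5 and TCP10 least (−0.42). These are descriptions over libraries that share groups and scaling, so that a few groups such as mARF8 stamens weigh heavily in them.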

How the data were processed

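RNA of 27 libraries was prepared with a TruSeq mRNA kit and read as single ends of 50 bases, per the labels' protocols. The deposited files hold whole-number read counts per locus, 33602 loci a library, not normalized. The submitters' processing notes name TopHat2, HTSeq, edgeR and TAIR10, with versions and the strand setting not given in the sources used here. Totals per library were 3692975 to 15374607 counts, so that 3 counts correspond to 0.171 to 1.07 CPM on the TMM scale, and intervals and floors cover counting error only.

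Groups came from the labels. The counts were fitted with edgeR 4.0.16 (quasi-likelihood test, TMM factors, filterByExpr with minima of 10 per library and 15 in all) in R 4.3.3, with 1 fit for the 9 stamen libraries, 1 for the 18 gynoecium libraries and 1 for all 27 for tissue contrasts and differences of effects. Adjusted p are Benjamini-Hochberg values over all loci tested, called under 0.05, and intervals are 95% intervals from t quantiles with the degrees of freedom of the quasi-likelihood test. The script was tested on simulated data. The alternatives were DESeq2 1.42.0, median-of-ratios and upper-quartile factors, no filter, a mean of at least 5 CPM, a fit of only the groups compared, a replicate block, library number as covariate, library numbers up to 23 alone, single lines, and leaving out each library. CPM use TMM factors of the 27-library fit. The reference for names, lengths and sequences was RefSeq's TAIR10.1, in which 82 of 82 listed loci matched.

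The members and lists were chosen with earlier results of these data known. Named genes were all 8 members, the precursor and altered loci, LOX2, of every other list at most 2 called genes a comparison by smallest adjusted p, and the 2 loci most like each member, of which 1 is given for some. Genes named beyond these (GRF8, KRP1, AS1, TCP9, TCP12, MYB33 and MYB65) were chosen after their values were seen. Protein sequences were not used here.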

Additional observations from a re-analysis of the deposited data

Results flagged for a closer look

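The effect of mARF8 was called different between stamens and gynoecia for TCP4, TCP13 and TCP24, and for 4 of the 8 genes with TCP17 included. This used the test of the difference itself in edgeR's fit of 27 libraries with Benjamini-Hochberg adjustment. The log2 difference was 1.82 for TCP4 (adjusted p = 0.000136), with the 4 mARF8 stamen libraries all above wild-type stamens and mARF8 gynoecia across the wild-type range. For TCP13 it was 1.36 (adjusted p = 0.0314), with mARF8 above wild type in every library of both tissues. For TCP24 it was 0.68 (adjusted p = 0.039), with mARF8 stamens 3 inside the wild-type range. For TCP17 it was 5.28 (adjusted p = 0.0137), a fitted size that rests on 15 against 0 counts in stamens, where TCP17 failed the filter, so that it entered the fit through gynoecia. Nothing is read from that call beyond those counts. The late pollen sum and the tapetum and endothecium sum moved in the same stamen libraries, and their part was not tested.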

How the results depend on the processing

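Of 289 values of called members under alternatives, 43 lost the call and none changed sign; of 1007 values of members not called, 18 gained one and 62 crossed 0 without a call. The larger moves in the number of members called were as follows. In arf6arf8 gynoecia, 2 became 4 with DESeq2, with only the groups compared, with the replicate block and with library number as a covariate, and 1 of 5 tested with a mean of at least 5 CPM. For arf6axr3 against axr3, 0 became 1 with DESeq2 and with the replicate block. In axr3 gynoecia, 0 became 2 with the covariate. In mARF8 gynoecia, 1 became 0 with only the groups compared and with low-numbered libraries alone. In mARF8 stamens, 3 became 1 with low-numbered libraries alone. For the mARF8 effect between tissues, 4 became 2 with only the groups compared and with line 3B, and 1 with low-numbered libraries. For the arf6arf8 effect, 0 became 1 with only the groups compared. Smaller moves came from TCP24. In mARF8 stamens it lost its call with only the groups compared (edgeR adjusted p = 0.0621) and with line 3B (0.207). For the mARF8 effect between tissues it lost its call with median-of-ratios factors (0.0598) and with DESeq2 (0.0519). Members under a mean of 5 CPM were not tested with that filter.

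Leaving out 1 library gave 0 to 3 members in arf6arf8 gynoecia, 0 to 1 in mARF8 gynoecia, in axr3 and in arf6axr3 against axr3, 2 to 4 in mARF8 stamens and for the mARF8 effect between tissues, 6 in each case between wild-type tissues, and 0 in each case elsewhere. Where this left an arf6arf8 group with 1 library, that library was assumed to vary like the other groups.

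Whether replicate numbers pair the libraries was not settled, because same-numbered libraries were not set against different-numbered ones. Deviations of same-numbered libraries correlated between −0.40 and 0.38 in 32 gynoecium pairs (median 0.04, 9 over 0.1). In 7 stamen pairs they correlated between −0.11 and 0.26 (median 0.15, 4 over 0.1). The block changed no other count of members called. For named pathway genes, recomputed the same way by a choice made after seeing the data, 1692 values kept the call, 294 lost it and none reversed. Over all loci, 826 calls in arf6arf8 stamens became 1375 with DESeq2 and 3530 with only the groups compared, and 6961 in mARF8 stamens became 1325 with low-numbered libraries. Low-numbered libraries could not be run for arf6axr3. Depth limits TCP3, TCP5 and TCP17, which have single counts in many stamen libraries. The causes of these shifts were not tested.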
